A study of Homo sapiens with 5 samples.

Results

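The regions described here are H3K27me3 domains of untreated bladder carcinoma cells that carried EZH2 and were still marked, but in separate pieces, after an EZH2 inhibitor. HT1376, an established cell line, was derived from a human bladder carcinoma. Cells were given the vehicle DMSO, or 250 nM of the EZH2 inhibitor CPI-0209 for 8 days, and chromatin was immunoprecipitated with an antibody against EZH2 or against H3K27me3 and sequenced. This gave 4 groups, named here by antibody and treatment (for example H3K27me3 DMSO), with 1 library each, all from this single line with no genetic change named in the labels. The 5 samples also include an input, which was not used here. For each library the intervals called by the submitters were used, in hg38, without scores or read counts, so the depth is unknown and a value is a yes or no call over a stretch of the genome.

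Overlapping or touching intervals of a list were merged into domains. A domain was included where it was called in H3K27me3 DMSO, was under 60 kb wide, shared at least 1 bp with an EZH2 DMSO domain and shared at least 1 bp with 2 or more separate H3K27me3 CPI-0209 domains. These are called broken domains, and each H3K27me3 CPI-0209 domain inside one is called a piece. Of 21589 H3K27me3 DMSO domains, 2244 were broken domains. They held 71.7 Mb. The domains were chosen by their calls in 3 of the lists, H3K27me3 DMSO, EZH2 DMSO and H3K27me3 CPI-0209. Their number, the retained length and its position, the outcome by width and the EZH2 DMSO coverage are therefore descriptions. They rest on 1 library per group, without a replicate check and without a test. The CPI-0209 list of EZH2, the position of genes and the promoter sequences took no part in the choice. Limits in brackets are exact (Clopper-Pearson) 95% binomial limits. They cover counting error only, and neighbouring domains and genes are not independent.

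Polycomb repressive complex 2 (PRC2), with EZH2 as its enzyme, adds methyl groups to lysine 27 of histone H3. The trimethylated form, H3K27me3, marks repressed chromatin, and the complex can bind the mark it has made, which helps the mark to spread from sites where the complex is recruited. In mammals such sites are often CpG islands, stretches rich in CG dinucleotides at the promoters of silent developmental genes. A catalytic inhibitor of EZH2 blocks new methylation, while existing marks are diluted as cells divide.

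The label of these regions was checked against the lists. All 2244 carried EZH2 in DMSO by the rule, with EZH2 called over 67.6% of their length. In CPI-0209, 2 of them had no EZH2 call. Of the 13 urothelial markers looked up, 9 have a start in the promoter table used, and 3 of these starts lay under H3K27me3 in DMSO. These were UPK1A, GATA3 and FOXA1, and all 3 lay in broken domains. No start of the 4 basal and squamous or 2 leukocyte markers with a start lay under H3K27me3, and of the fibroblast markers the start of PDGFRA did, outside the broken domains. Marks are not expression, and no cell type was inferred from them.

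The sequences in front of 8 gene starts in broken domains show what lay under the pieces and what lay between them. They were taken in the order of gene lists described further on, 4 with the start under a piece and 4 with the start of a broken domain outside the pieces. Each is the stretch of 250 bases in front of the start, written 5′ to 3′ on the gene's strand, from RefSeq (GRCh38.p14, the assembly of hg38), with every CG dinucleotide in capitals.
The first 4 belong to HOXD genes, which encode homeodomain factors that pattern the limbs and the body axis, and their starts lay under pieces. They are at chr2:176129455-176129704 (HOXD8, 28 CG dinucleotides), chr2:176116528-176116777 (HOXD10, 23), chr2:176107030-176107279 (HOXD11, 23) and chr2:176099545-176099794 (HOXD12, 16), all on the plus strand.
HOXD8: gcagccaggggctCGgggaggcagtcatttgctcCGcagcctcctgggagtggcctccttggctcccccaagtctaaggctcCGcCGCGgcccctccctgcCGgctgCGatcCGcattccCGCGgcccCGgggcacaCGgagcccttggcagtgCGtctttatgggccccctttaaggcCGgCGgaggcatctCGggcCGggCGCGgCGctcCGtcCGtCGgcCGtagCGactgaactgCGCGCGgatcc
HOXD10: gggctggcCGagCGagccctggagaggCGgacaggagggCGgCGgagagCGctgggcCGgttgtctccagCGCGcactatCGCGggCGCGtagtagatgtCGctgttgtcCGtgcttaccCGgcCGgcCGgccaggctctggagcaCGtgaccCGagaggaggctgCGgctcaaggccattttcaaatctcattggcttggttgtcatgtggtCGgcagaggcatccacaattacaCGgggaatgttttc
HOXD11: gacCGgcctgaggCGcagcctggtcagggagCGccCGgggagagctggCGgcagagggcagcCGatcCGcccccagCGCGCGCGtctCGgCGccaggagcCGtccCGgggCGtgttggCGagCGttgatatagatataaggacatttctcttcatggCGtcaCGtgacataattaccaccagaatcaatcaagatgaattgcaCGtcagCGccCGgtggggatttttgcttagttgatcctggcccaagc
HOXD12: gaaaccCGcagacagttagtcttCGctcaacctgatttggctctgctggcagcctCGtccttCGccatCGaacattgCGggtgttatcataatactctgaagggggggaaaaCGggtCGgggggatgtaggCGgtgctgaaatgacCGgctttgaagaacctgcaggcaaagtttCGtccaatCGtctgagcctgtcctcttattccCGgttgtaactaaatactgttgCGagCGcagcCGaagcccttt
The other 4 starts lay in a gap between pieces. FOXD1 and ONECUT2 encode transcription factors, GDF3 a ligand of the TGF-beta family and CACNA1B the pore subunit of a neuronal calcium channel. The stretches are at chr5:73448778-73449027 (FOXD1, minus strand, 13 CG dinucleotides), chr18:57435124-57435373 (ONECUT2, plus strand, 20), chr12:7695776-7696025 (GDF3, minus strand, 0) and chr9:137877532-137877781 (CACNA1B, plus strand, 39).
FOXD1: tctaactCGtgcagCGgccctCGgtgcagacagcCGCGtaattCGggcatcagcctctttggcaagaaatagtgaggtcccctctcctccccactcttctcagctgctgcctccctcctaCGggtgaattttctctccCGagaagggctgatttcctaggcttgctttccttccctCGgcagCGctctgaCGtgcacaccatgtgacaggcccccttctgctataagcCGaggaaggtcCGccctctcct
ONECUT2: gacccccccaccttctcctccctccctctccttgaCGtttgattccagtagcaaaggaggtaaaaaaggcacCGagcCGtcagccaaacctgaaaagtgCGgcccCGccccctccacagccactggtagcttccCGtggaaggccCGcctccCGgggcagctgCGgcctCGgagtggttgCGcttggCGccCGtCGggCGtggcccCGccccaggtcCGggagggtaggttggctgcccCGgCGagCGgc
GDF3: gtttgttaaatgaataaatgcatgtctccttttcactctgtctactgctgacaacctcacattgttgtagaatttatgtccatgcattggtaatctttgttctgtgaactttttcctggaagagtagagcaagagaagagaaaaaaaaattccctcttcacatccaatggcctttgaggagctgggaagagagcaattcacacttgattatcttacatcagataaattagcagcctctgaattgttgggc
CACNA1B: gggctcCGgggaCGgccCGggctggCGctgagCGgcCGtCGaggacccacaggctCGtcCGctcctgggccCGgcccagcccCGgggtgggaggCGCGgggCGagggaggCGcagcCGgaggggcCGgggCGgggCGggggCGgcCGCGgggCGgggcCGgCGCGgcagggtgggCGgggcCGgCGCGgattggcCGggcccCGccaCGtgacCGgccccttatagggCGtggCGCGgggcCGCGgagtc
In these 8 stretches a high count of CG dinucleotides did not separate the starts under pieces from those between them: CACNA1B had the most and GDF3 had none. The 4 HOXD starts share a single broken domain and are not independent. Over all gene starts in broken domains the shares did differ.

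The first question was how far the domains were broken up. Of the 2244 broken domains, 1308 were left in 2 pieces, 576 in 3, 242 in 4, 82 in 5, 30 in 6, 4 in 7 and 2 in 8, so that 936 (41.7%, 39.7 to 43.8) were in 3 or more. This share was 18.8% when H3K27me3 CPI-0209 calls were joined over gaps of up to 3 kb. The broken domains had a median width of 30.6 kb, with quartiles of 22 and 41.0 kb. The 5946 pieces were short beside them, with a median of 5.2 kb and quartiles of 3.2 and 8.2 kb. Pieces covered 54.6% of the length of the broken domains. Another 19.1% of the length lay in gaps between pieces and 26.3% lay in the flanks, outside the outermost pieces. The retained share varied widely, from 4.48% to 97.8% of a domain with quartiles of 39.2% and 69.9%. It was under 25% in 144 domains and at least 75% in 400. Both ends were trimmed back in 1835 domains (81.8%). The largest piece of a domain spanned a median of 29.1% of its width. For comparison, H3K27me3 CPI-0209 covered 42.1% of the length of EZH2-bound domains left with a single piece. Over all EZH2-bound domains under 60 kb it covered 45.0%. Genome-wide, the merged H3K27me3 calls held 315.1 Mb before treatment (DMSO) but 113.8 Mb after it (CPI-0209). Of these lengths, 62.7% (DMSO) and 12.9% (CPI-0209) lay under 2 overlapping intervals. Whether this difference between the lists plays a part in the breaking was not tested.

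Gaps between pieces were short and long. There were 3702 gaps with a median of 2.2 kb. Of these, 1156 were at most 1 kb and together held 7.31% of the gap length, while 1468 were over 3 kb and held 77.5% of it. The largest gap of a domain had a median of 3.4 kb. In 438 broken domains (19.5%) the largest gap was at most 1 kb, so these would count as single-piece domains if calls that close were joined. In 1206 (53.7%) it was over 3 kb. Short spacing was also found between domains in DMSO, where 834 of the broken domains (37.2%) had another H3K27me3 DMSO domain within 1 kb. Joining CPI-0209 domains over gaps of up to 3 kb left 1206 broken domains, which moves the main count by more than 1.5 times.

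Breaking was common among wide EZH2-bound domains. Among all 20908 H3K27me3 DMSO domains under 60 kb, 2382 overlapped 2 or more pieces (11.4%). Among the 7421 with EZH2 the share was 30.2%, and among the 13487 without EZH2 it was 1.02%. The other EZH2-bound domains kept 1 piece (4094) or none (1083). Width has to be taken into account, since a wider domain has more room for 2 pieces: single-piece domains had a median width of 12.2 kb and domains with no piece 8.8 kb. Among EZH2-bound domains the broken share was 2.05% at 5 to 10 kb, 16.1% at 10 to 20 kb, 58.1% (55.9 to 60.2) at 20 to 40 kb and 87.9% at 40 to 60 kb. The limits cover counting error only, and with H3K27me3 CPI-0209 calls joined over 3 kb the share at 20 to 40 kb was 31.1%. Among domains without EZH2 it was 0.178%, 1.63%, 11.5% and 36.1% in the same classes. Within the class of 20 to 40 kb, the share also differed by how much of the domain carried EZH2 in DMSO. It was 40% (33.2 to 47.1) where EZH2 covered up to 25% of the domain, 42.4% from 25 to 50%, 64.4% from 50 to 75% and 70.1% (66.7 to 73.3) above 75%. Domains with no piece made up 15% of the first of these classes and 0.781% of the last.

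**Figure D1:**
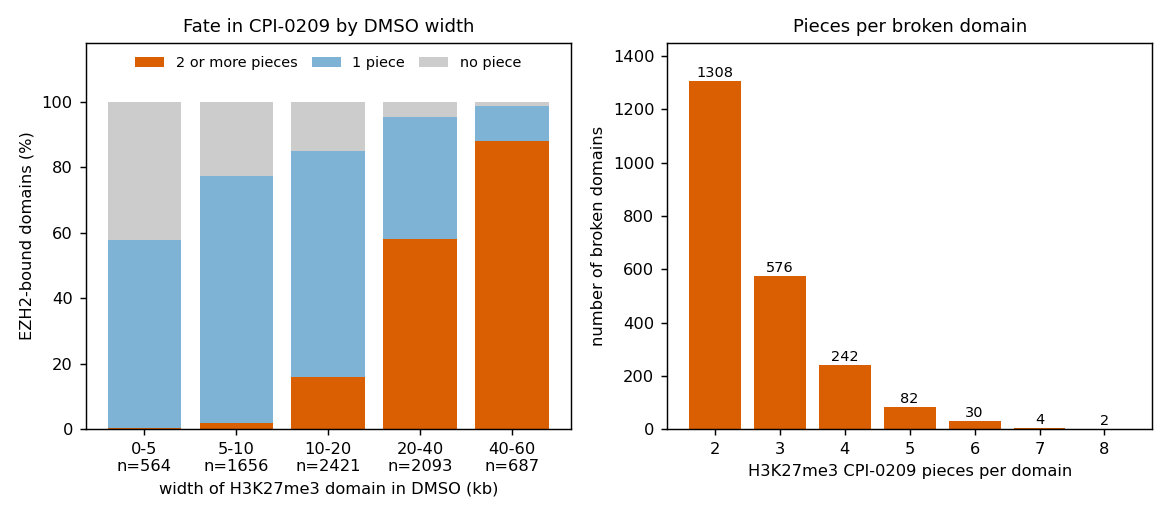
The left panel shows, for EZH2-bound H3K27me3 DMSO domains in 5 width classes (kb, with the number of domains), the percent that overlapped 2 or more, 1 or no H3K27me3 CPI-0209 domain as stacked bars. The right panel counts broken domains by their number of pieces; the broken share goes from 2.05% at 5 to 10 kb to 87.9% at 40 to 60 kb, and 1308 of 2244 broken domains have 2 pieces.

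Pieces were also found just outside the width limit. The 3 broken domains closest below it were each 59.8 kb wide. They lay at chr2:10450801-10510600 with 3 pieces and 58.2% retained, at chr5:16774201-16834000 in MYO10, which encodes an unconventional myosin, with 2 pieces and 54.2%, and at chr9:126738001-126797800 with 3 pieces and 60.2%. The 3 closest above it were each 60 kb wide and had 2 pieces with 36.7% retained on chromosome 8, 4 pieces with 88.0% on chromosome 10 (132453401 to 132513400) and 5 pieces with 64.0% on chromosome 12 (2595801 to 2655800). The share of EZH2-bound domains under 60 kb that were broken ran from 17.3% (11.6 to 24.4) on the X chromosome to 40.5% (35.5 to 45.7) on chromosome 19, 40.2% on chromosome 22 and 38.9% on chromosome 17. The median width of EZH2-bound domains was 9.1 kb on the X chromosome and 14.4 kb on chromosome 19, and whether width accounts for this order was not tested.

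Position inside the domain was then compared. The middle of 3 equal parts of the broken domains was under H3K27me3 CPI-0209 over 61.7% of its length, and the 2 outer parts over 51.1%. In single-piece domains these values were 61.4% and 32.5%. In broken domains they were 53.0% and 50.2% when H3K27me3 CPI-0209 calls were joined over gaps of up to 3 kb. Along the scaled length of broken domains, H3K27me3 CPI-0209 was called in 19.7% of domains at the first of 21 positions, 59.8% at the fourth, 61.7% at the centre and 18.8% at the last. The interior was level, and most pieces stopped short of the old edges. EZH2 was also called less often at the edges than at the centre. EZH2 CPI-0209 was called in 48.0% of broken domains at the first position, 80.7% at the centre and 46.7% at the last, and EZH2 DMSO in 37.9%, 77.1% and 37.5%.

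**Figure D2:**
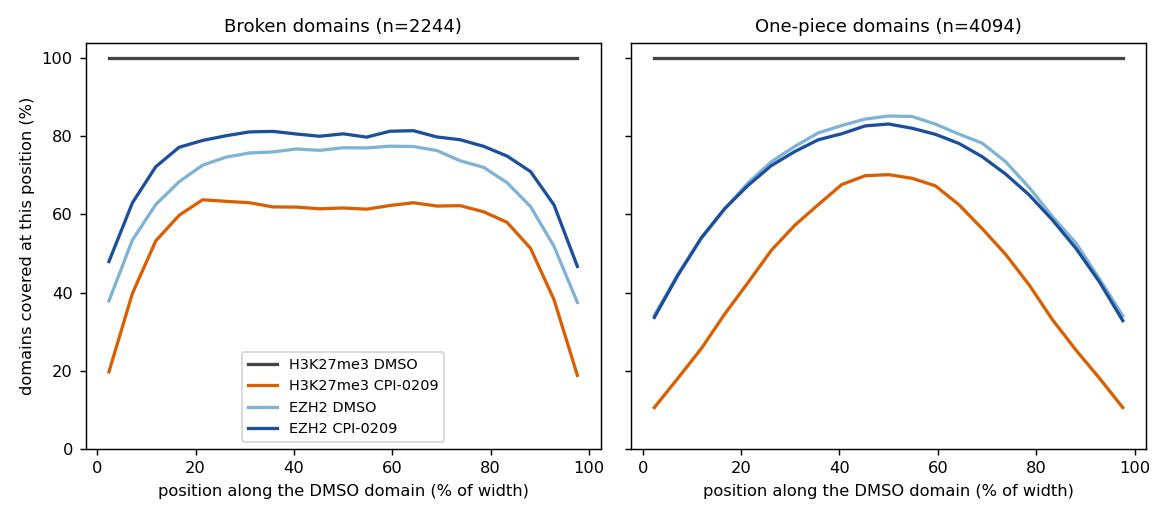
Each panel plots the percent of domains covered by each of the 4 lists against the position along the H3K27me3 DMSO domain, scaled to percent of its width, for broken domains (left, n=2244) and for EZH2-bound domains left with a single piece (right, n=4094). H3K27me3 CPI-0209 is level at about 61.7% through the interior of broken domains, and EZH2 CPI-0209 lies above EZH2 DMSO there.

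EZH2 stayed on the broken domains in CPI-0209. It was called over 67.6% of their length in DMSO and 74.4% in CPI-0209. The same values were 62.5% and 62.7% for single-piece domains, and 46.4% and 34.4% for domains with no piece. EZH2 covered more length in CPI-0209 than in DMSO in 1342 of the 2244 broken domains (59.8%), against 45.4% of all EZH2-bound domains under 60 kb, 41.5% of the single-piece domains and 30.1% of those with no piece. This share varied with width. In broken and single-piece domains it was 29.4% and 35.1% at 5 to 10 kb, and 51.7% and 43.1% at 10 to 20 kb. It was 60.1% and 54.3% at 20 to 40 kb, and 66.2% and 45.9% at 40 to 60 kb. At a matched width of 20 to 40 kb, EZH2 went from 66.3% of the length in DMSO to 73.0% in CPI-0209 in broken domains, from 56.2% to 60.2% in single-piece domains and from 35.7% to 32.2% in domains with no piece. Over the genome, EZH2 calls spanned 193.4 Mb in DMSO against 226.3 Mb in CPI-0209. With 1 library per group, a change in EZH2 cannot be told apart from a difference in depth or background between libraries.

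Inside the broken domains EZH2 calls were denser on the pieces. In CPI-0209 it was called over 93.0% of the length of the pieces and 52.1% of the length outside them. The contrast was not particular to broken domains: the values were 93.6% and 40.2% in single-piece domains, and 93.2% and 44.3% over all EZH2-bound domains under 60 kb. Of the 5946 pieces, 5648 (95%) touched an EZH2 CPI-0209 interval. The same stretches already differed in DMSO, when H3K27me3 was called over all of them: EZH2 DMSO covered 87.4% of the length that was to remain as pieces, 56.9% of the later gaps and 34.2% of the later flanks. In CPI-0209 the gaps had 62.5% and the flanks 44.6%, so the covered share was higher than in DMSO in all 3 kinds of stretch. In single-piece domains, EZH2 DMSO covered 93.0% of the later piece and 40.2% of the rest. The rule used the EZH2 DMSO list, so these DMSO values are a description. Many gaps without an H3K27me3 call had an EZH2 call. Of the 3702 gaps, 2063 (55.7%) lay wholly under EZH2 CPI-0209 and 7.13% touched none. Short gaps were bound most: EZH2 CPI-0209 covered 87.1% of the length of gaps up to 1 kb, 78.4% of gaps from 1.2 to 3 kb and 57.0% of longer ones, and EZH2 DMSO covered 84.1%, 76.2% and 50.5%. EZH2 itself came in more separate runs, a mean of 1.63 per broken domain in DMSO and 2 in CPI-0209. Another measured property moved with the pieces: 96.1% of the length of the later pieces lay under 2 overlapping intervals of the H3K27me3 DMSO list, against 76.3% of the gaps and 54.0% of the flanks. The part of these double calls in the result was not tested.

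Single domains show the range of patterns. The 2 domains with 8 pieces lay at chr10:97027201-97081400, within SLIT1, which encodes an axon guidance ligand, and at chr1:7909201-7952200, which holds the start of TNFRSF9, a costimulatory receptor of T cells, and overlaps UTS2, which encodes the peptide urotensin 2. The SLIT1 domain was 54.2 kb wide and had 28.2 kb left under H3K27me3, in pieces of 2.2 to 5.8 kb. EZH2 covered 36.2 kb of it in DMSO and 37.6 kb in CPI-0209. The TNFRSF9 domain was 43 kb wide with 27.6 kb left, and EZH2 went from 41.2 to 37.4 kb.
The 4 domains with 7 pieces lay at PYY, a gut peptide hormone gene, at MYO1F and ADAMTS10, at chr3:12845601-12892400 outside protein-coding gene records, and at RASGRP4 and RYR1. The last of these, at chr19:38410001-38454400, stood apart in its EZH2 values: EZH2 covered 17.1% of its length in DMSO and 44.1% in CPI-0209, while 60.8% remained under H3K27me3. In the PYY domain, EZH2 covered 84.6% in DMSO and 63.7% in CPI-0209.
With 6 pieces, the PAX2 domain at chr10:100704201-100763800 was 59.6 kb wide. PAX2 encodes a paired-box factor of kidney and urogenital development, and its start lay under the largest piece, of 18.8 kb. H3K27me3 CPI-0209 covered 64.8% of the domain, and EZH2 covered 89.6% in DMSO and 86.2% in CPI-0209. In SHANK2, at chr11:70796201-70855400, a domain with 6 pieces kept 47.6% under H3K27me3, while EZH2 went from 65.5% to 90.9%.

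**Figure D3:**
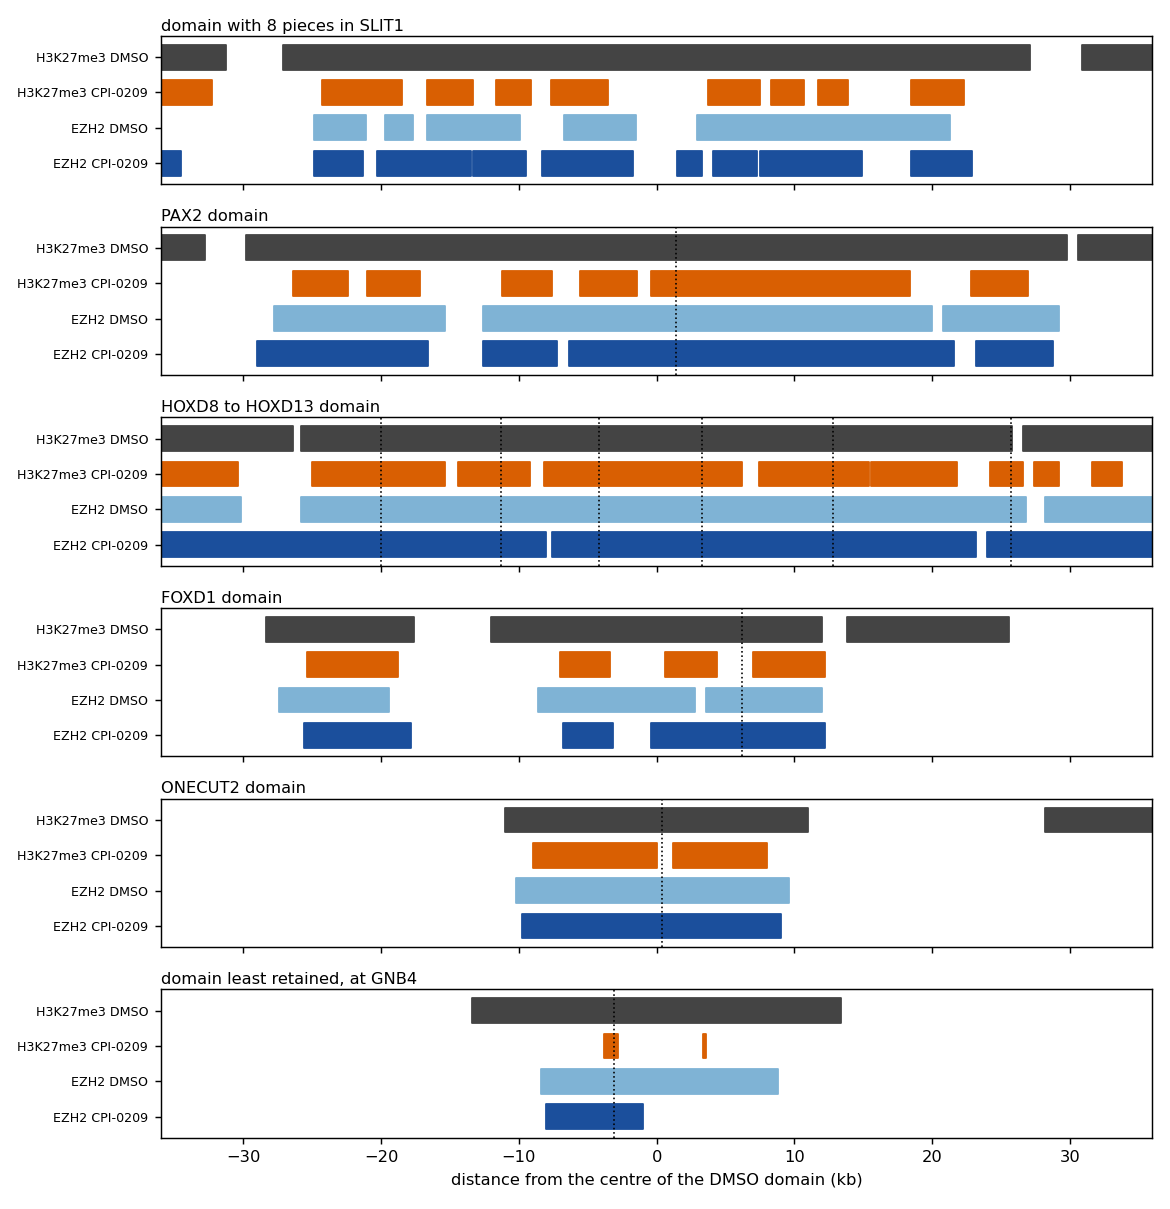
The 6 broken domains shown are drawn as 4 tracks of called intervals (H3K27me3 DMSO, H3K27me3 CPI-0209, EZH2 DMSO, EZH2 CPI-0209) against the distance from the domain's centre in kb, with dotted lines at protein-coding gene starts inside the domain. In the SLIT1 domain 8 short pieces remain, in the PAX2 domain the start lies under the largest of 6 pieces, and in the FOXD1 and ONECUT2 domains the start lies in a gap that is still under EZH2.

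The extremes of retention differed in kind. Among broken domains of at least 10 kb, the 6 that kept most were nearly whole, with 95.6% to 97.8% of the length under 2 pieces and a gap of 0.8 or 1.0 kb. They lay in NXN, at the start of KCNG2, in GALNT9, in LMF1, in RASA3 and at chr1:1116601-1139200, and EZH2 covered at least 93.7% of each in both conditions. The 6 that kept least had 4.48% to 11.5% left. The lowest was the domain at the start of GNB4, which encodes a G protein beta subunit, at chr3:179441201-179468000. It had 1.2 kb left of 26.8 kb, as a piece of 1.0 kb at the start and another of 0.2 kb, and EZH2 went from 64.2% to 26.1% of its length. The others lay at chr7:39813001-39845600, in NSG2, at LYPD4 and DMRTC2, in F11, which encodes a coagulation factor, and at the start of HOMER2. In the domain of LYPD4 and DMRTC2 both starts lay in a gap of 19.0 kb.
The largest gains and losses of EZH2 were also listed. EZH2 went from 16.6 to 51.2 kb in a domain of 52.0 kb at chr20:46736801-46788800, from 4.8 to 36.8 kb in the domain of 36.8 kb at ACCSL, and from 7.2 to 38.6 kb in the domain of 48.8 kb at BCL11B, which encodes a zinc finger factor of T cell development. These 3 domains kept 26.9%, 48.4% and 34.0% of their length under H3K27me3. The largest losses were from 36.8 to 12.6 kb at CRNKL1 and CFAP61, from 45.0 to 21 kb at TMEM114 and from 45.2 to 22.6 kb at PRKCQ, with 18.2%, 26.9% and 39.5% of the length kept. All 6 of these domains kept less than 50% of their length under H3K27me3.

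Genes were placed by their outermost start. A start was found in the promoter table for 15807 of 19970 protein-coding genes (79.2%). Starts on chromosome 8, where 75 of the broken domains lie, were not scored here. Broken domains held 757 starts, 4.79% of the 15807, in 634 of the 2244 domains. No protein-coding gene record at all was touched by 736 broken domains (32.8%). Of the 757 starts, 633 (83.6%, 80.8 to 86.2) lay under a piece, 36 in a gap between pieces and 88 in a flank. This compares with 54.6% of the length of the broken domains. Of the starts in all EZH2-bound domains under 60 kb, 80.0% were still under H3K27me3 in CPI-0209. Of those under any H3K27me3 DMSO domain, 69.7% were. Both of these wider sets include domains with no piece, while the rule asked for pieces. A higher share in broken domains was therefore partly set by the rule. In single-piece domains, 86.6% (84.6 to 88.5) of the starts lay under the piece. Pieces, gaps and flanks lay in protein-coding gene records over similar shares of their length, 50.4%, 47.3% and 42.1%. Exons and introns were not told apart.

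The remaining mark was called most often at and just downstream of the starts. At the 757 starts themselves, H3K27me3 CPI-0209 was called at 83.6%, and 0.4 kb downstream at 84.0%, the highest of the positions scored. It was called at 59.4% of positions 2 kb upstream and 73.8% of those 2 kb downstream, and at 34.7% of those 10 kb upstream and 46.2% of those 10 kb downstream. In DMSO the mark was called at 93.8% and 95.5% of the positions at 2 kb, and at 70.4% and 79.7% of those at 10 kb. Coverage on the downstream side was thus higher in both conditions, by 14.4 points at 2 kb in CPI-0209 and 1.72 points in DMSO. EZH2 was called at 651 of the 757 starts in DMSO and at 707 in CPI-0209. Of the 651 starts with an EZH2 call in DMSO, 90.2% (87.6 to 92.3) lay under a piece, and of the 106 without one 43.4% (33.8 to 53.4) did. The rule used both lists behind this split, EZH2 DMSO and H3K27me3 CPI-0209, so it is a description.
The 36 starts inside gaps were mostly EZH2-bound as well, 26 of them in DMSO and 31 in CPI-0209. Of the 88 starts in flanks, EZH2 was called at 38 in DMSO and 57 in CPI-0209. At most of these starts the EZH2 call was present in CPI-0209 although the H3K27me3 call was not.

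**Figure D4:**
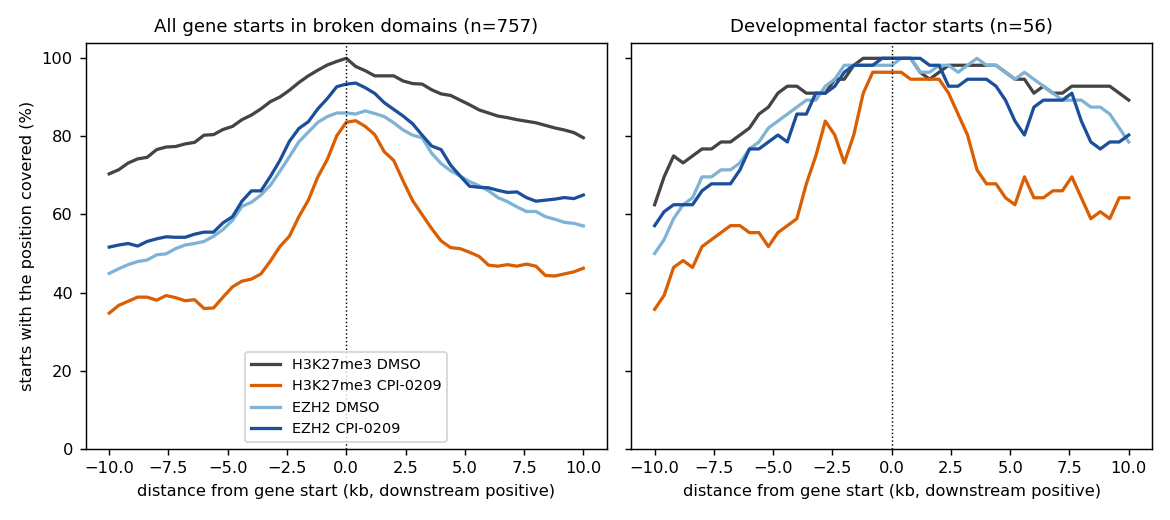
The percent of gene starts whose surroundings were covered by each of the 4 lists is plotted against the distance from the start in kb, downstream positive, for all 757 starts in broken domains (left) and for the 56 starts of listed developmental factors (right). H3K27me3 CPI-0209 is at 83.6% at the start, 84.0% at 0.4 kb and 46.2% at 10 kb downstream, while for developmental factors it is at 96.4% and 64.3%.

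The promoter sequence was compared next. A promoter was called CpG-rich where the 300 bases from 250 in front of the start to 50 behind it had an observed over expected CG ratio of at least 0.6 and a G plus C content of at least 50%. This held for 63.1% of all 15807 promoters. It held for 54.5% (50.5 to 58.4) of the 633 starts under pieces and for 30.6% (22.7 to 39.6) of the 124 starts outside them. Looked at the other way, 345 of 383 CpG-rich starts lay under a piece (90.1%, 86.6 to 92.9) and 288 of 374 other starts did (77.0%, 72.4 to 81.2). The order was the same in the 3 widest classes: 86.3% (73.7 to 94.3) against 75.4% (62.2 to 85.9) at 10 to 20 kb, where the limits overlap, 91.0% against 76.3% at 20 to 40 kb and 91.8% against 78.3% at 40 to 60 kb. It was also the same in single-piece domains, 94.5% against 70.2%. The broken domains were the less CpG-rich of the 2 classes, with 50.6% (47.0 to 54.2) of their starts CpG-rich against 67.6% (65.0 to 70.2) in single-piece domains. CpG-rich starts also carried EZH2 more often in DMSO, 359 of 383 against 292 of 374 others, and the part of EZH2 in the difference was not tested.

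**Figure D5:**
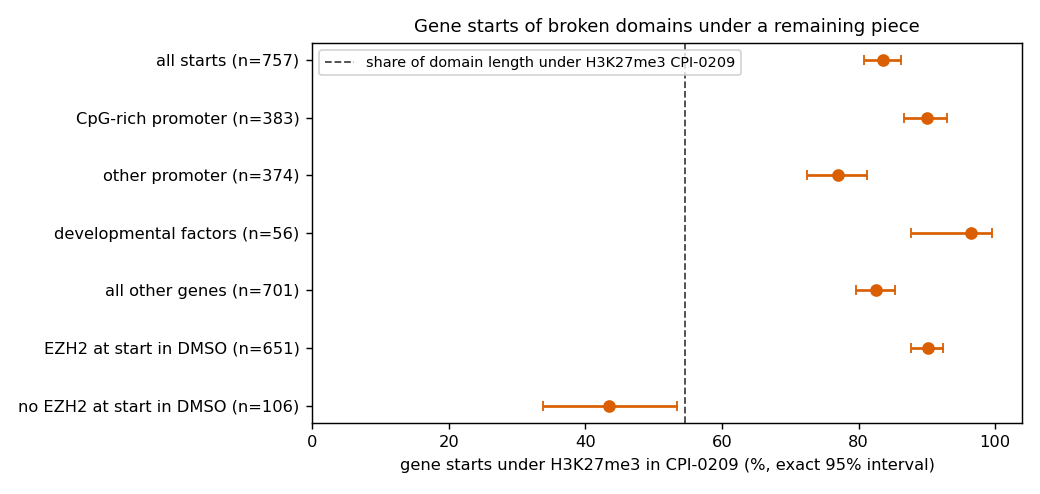
Points give the percent of gene starts in broken domains that lay under an H3K27me3 CPI-0209 piece, for all 757 starts and for classes of them, with exact 95% binomial intervals as bars (counting error only). The dashed line marks the 54.6% of the domains' length under pieces; the class without an EZH2 call at the start in DMSO, at 43.4%, is the one whose point lies below it.

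Gene lists give the breakdown by function. Of 231 developmental transcription factor genes, 158 have a start in the table and 133 of these starts lay under H3K27me3 in DMSO. Broken domains held 56 (35.4%, against 4.79% of all protein-coding starts), in 55 domains. With H3K27me3 CPI-0209 calls joined over gaps of up to 3 kb, the count was 25. Single-piece domains held 45, domains with no piece 4, and domains of 60 kb or wider 22. Over all 15807 protein-coding starts, 3288 lay under H3K27me3 in DMSO, with 757 in broken and 1264 in single-piece domains. The listed factors were thus more frequent in single-piece domains and under H3K27me3 as a whole too. Of the 56 starts, 54 (96.4%, 87.7 to 99.6) lay under a piece, against 579 of the 701 other starts (82.6%, 79.6 to 85.3). Of the 56 promoters, 47 were CpG-rich (83.9%). Among CpG-rich starts of genes outside this list, 300 of 336 (89.3%, 85.5 to 92.4) lay under a piece, with limits that overlap those of the listed factors. The 55 domains kept a median of 62.3% of their length, against 54.4% over all broken domains. EZH2 was called at 55 of the 56 starts in DMSO and at all 56 in CPI-0209.
PAX2 was described above. PAX3, a factor of neural crest and muscle precursors, had its start under a piece in a domain of 40.2 kb at chr2:222285201-222325400 with 3 pieces and 63.2% retained. PAX6, a factor of eye development, had its start in a domain of 21.2 kb at chr11:31816601-31837800, in 2 pieces and 44.3% retained. SOX1, a neural progenitor factor, lay in a domain of 19.0 kb on chromosome 13 that kept 89.5% of its length, with EZH2 over 100% of it in both conditions.
The 2 listed developmental factors outside the pieces were FOXD1 and ONECUT2, whose promoters are printed above. The FOXD1 start (chr5:73448777) lay in a gap of 2.6 kb, 0.824 kb from the nearest piece, in a domain of 24.0 kb with 3 pieces. The ONECUT2 start (chr18:57435374) lay in a gap of 1.2 kb, 0.374 kb from a piece, in a domain of 22 kb with 2 pieces. Both promoters were CpG-rich, and EZH2 was called at both starts in both conditions.
Other developmental factors are named here after their values were seen. Retention ran from 30.1% in the NHLH2 domain to 90.9% in the TBX21 domain. TCF21 was the factor with no EZH2 call at its start in DMSO, and it had one in CPI-0209. EZH2 went from 43% to 86.0% of the domain of POU3F1, a POU factor, and from 95% to 51.3% of the domain of FOXA3, a forkhead factor of liver and gut. GATA3 and FOXA1, factors of luminal urothelium, had both starts under pieces, with 67.3% and 74.3% of their domains retained.

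The HOX genes lie mostly in wider domains. Of 39 HOX genes, 20 have a start in the table, and 15 of these starts lay in domains of 60 kb or wider. The other 5 shared a single broken domain of 51.6 kb at chr2:176078201-176129800, from EVX2 to HOXD8. It kept 87.2% of its length in 6 pieces of 2.4 to 14.4 kb, with gaps of 0.2 to 2.4 kb. EZH2 covered 100% of it in DMSO and 97.7% in CPI-0209. The starts of HOXD8, HOXD10, HOXD11, HOXD12, HOXD13 and EVX2 all lay under pieces, and the 5 HOXD promoters were CpG-rich. These 5 starts share 1 domain and are not independent.

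Signalling genes were next. Of 76 signalling ligands, receptors and antagonists with a start, 51 lay under H3K27me3 in DMSO, 22 of them in single-piece domains. Over all 15807 protein-coding starts, 3288 lay under H3K27me3 in DMSO and 757 in broken domains. The listed signalling genes were thus more frequent under H3K27me3 as a whole too. Whether they were more frequent in broken domains beyond this was not tested. Broken domains held 10 (13.2%, against 4.79% of all protein-coding starts), 9 of them under a piece. Over all starts in broken domains, 83.6% lay under a piece. WNT1, a Wnt ligand, had its start in a domain with 4 pieces and 64.1% retained. SFRP5, a secreted Wnt antagonist, had 3 pieces and 60.7%. Among ligands of the TGF-beta family, BMP4 had 60.2% retained, BMP8A 35%, GDF7 78.2% and INHBB 68.8%, the last in 6 pieces. Of the fibroblast growth factors, FGF5 lay in a domain of 9.0 kb with 60% retained and FGF14 in one of 14.2 kb with 60.6%. IHH, a hedgehog ligand, had 44.5% retained, while EZH2 went from 63.6% to 89.1% of its domain. GDF3 was the exception, with its start (chr12:7695775) 2.23 kb from the nearest piece in a gap of 7.2 kb, and EZH2 was called there in both conditions.

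Among 83 ion channels and transmitter receptors with a start, 57 lay under H3K27me3 in DMSO, 29 of them in single-piece domains. These genes too were more frequent under H3K27me3 as a whole, and a preference for broken domains beyond this was not tested. Broken domains held 11 (13.3%, against 4.79% of all protein-coding starts), 10 of them under a piece. The potassium channel genes were KCNC1 (60.6% of the domain retained), KCND3 (52.3%), KCNG2 (97.7%), KCNJ4 (79.7%), KCNK3 (89.7%) and KCNN1 (74.8%). Receptors for transmitters and peptides were GABBR2 with 40.8%, GRM6 with 75.2%, HTR6 with 75% and SSTR2 with 14.6%, the lowest of the 11. The SSTR2 start still lay under a piece, in a domain of 50.8 kb with EZH2 over 37.8% in DMSO and 33.9% in CPI-0209. The CACNA1B start (chr9:137877782) lay in a gap of 0.8 kb, and EZH2 was called there in CPI-0209 and not in DMSO.
Of 42 extracellular matrix genes with a start, 29 lay under H3K27me3 in DMSO, 12 of them in single-piece domains. Broken domains held 4 (9.52%, 2.66 to 22.6), all under pieces, with limits that include the 4.79% of all protein-coding starts. These were COL9A2 (52.2% of the domain retained), COL15A1 (34.0%), FBN3 (80.7%) and BCAN (91.3%). In the COL15A1 domain EZH2 went from 32.1% to 72.4%.
Among 37 immune genes with a start, 13 lay under H3K27me3 in DMSO, 5 of them in single-piece domains. Broken domains held 4 (10.8%, 3.03 to 25.4), with limits that include the 4.79% of all protein-coding starts. IL10, an anti-inflammatory cytokine gene, had its start under a piece in a domain of 55 kb with 5 pieces and 34.5% retained. The other 3 encode stress-induced ligands of the receptor NKG2D. MICB kept 87.4% of its domain and RAET1L 66.5%, both with the start under a piece. The ULBP1 start (chr6:149963943) lay in a gap of 1.0 kb, in a domain that kept 21.1%, and EZH2 went from 72.2% to 41.1% of that domain.
Of 22 urothelial and keratinocyte genes with a start, 1 lay in a single-piece domain and 1 in a broken domain (4.55%, against 4.79% of all protein-coding starts). The gene in the broken domain was UPK1A, a uroplakin of the bladder surface. Its start lay in the flank, 1.28 kb from a piece, with no EZH2 call at the start in either condition. Of 14 cell cycle inhibitors and tumour suppressors with a start, 1 lay in a broken domain (7.14%, 0.181 to 33.9, against 4.79% of all protein-coding starts). It was GADD45G, a stress-induced growth inhibitor, whose start lay under a piece in a domain with 57.0% retained. None of 24 Polycomb and H3K27 demethylase genes or 26 housekeeping genes with a start lay in a broken domain. The upper limits were 14.2% and 13.2%, which include the 4.79% of all protein-coding starts. None of these starts lay under any H3K27me3 DMSO domain. The gene records of CBX2 and CBX8 touched broken domains, with no start scored there.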

How the data were processed

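The authors deposited 4 lists of called intervals in hg38, 1 per ChIP library; per the file headers they hold chromosome, start and end. The submitters' processing notes name BWA and SICER; versions, roles and settings are not given in the sources used here. Widths are whole multiples of 200 bp. Overlapping or touching intervals were merged, and coverage was counted on this 200 bp grid with Python 3.11.15, numpy 2.4.6, pandas 2.3.3 and scipy 1.17.1. Coordinates count from 1. Intervals within a list overlap, up to 2 deep. Gene starts and promoter sequences came from RefSeq tables of GRCh38.p14. With 1 library per group there was no test between conditions. The regions and gene lists were chosen with earlier results of these data known. Named domains were the 8 with most pieces, the 6 with highest and lowest retention at 10 kb or wider, the 3 on each side of the width limit and the 3 with the largest EZH2 gain and loss. From each gene list the first 4 under and outside pieces were named, and lists of 12 or fewer in full. The interval code was checked on simulated lists. Alternatives varied merging, the piece size, the EZH2 overlap, the width limit and the promoter criteria.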

Additional observations from a re-analysis of the deposited data

How the results depend on the processing

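No paired analysis was possible because each group holds 1 library. Each of 12 results was recomputed under the alternatives, 114 values in all. Of these, 77 stayed within the main value's 95% limits or, for counts, within 1.5 times it. For shares of length, the limits were computed as if the 2244 broken domains were binomial trials. They are a yardstick there, not exact limits, and the count of 77 rests partly on them. All 12 results stayed within these bounds when pieces under 1 kb were left out and when a piece had to overlap by 1 kb. They also did when touching intervals were kept apart. This last choice, like the use of both ends of gene records, was made after seeing the data. With H3K27me3 CPI-0209 joined over 1 kb, 31.8% of broken domains were in 3 or more pieces, 59.0% of the middle part was retained and 47.2% of EZH2-bound domains of 20 to 40 kb were broken. With 3 kb these values were 18.8%, 53.0% and 31.1%, the number of broken domains was 1206, the retained length 51.1%, EZH2 CPI-0209 on pieces 91.0%, and developmental factor genes numbered 25. With both conditions joined over 1 kb, 35.4% were in 3 or more pieces, retained length was 50.4% (middle 54.9%, outer parts 48.1%), EZH2 CPI-0209 covered 91.4% of pieces and 47.4% outside them, 80.3% of starts lay under a piece and 45.4% of EZH2-bound domains of 20 to 40 kb were broken. With EZH2 DMSO over at least 50% of the domain, the values in that order were 44.8%, 60.6% (67.9% and 57.0%), 95.1% and 59.8%, and 67.7% of EZH2-bound domains of 20 to 40 kb were broken. With no width limit they were 52.5%, 59.8% (66.0% and 56.8%), 94.9% and 56.1%. With at least 50% of the domain under 2 DMSO intervals, 61.9% of those of 20 to 40 kb were broken. Stricter CpG criteria (ratio 0.75, content 55%) gave 39.5% CpG-rich starts under pieces and 20.2% outside. Counting starts within 1 kb of a piece gave 88.6%, and both ends of all gene records 72.8%. With 5 equal parts in place of 3, 43.6% of the outer parts was retained. Under every one of these settings that was compared, EZH2 CPI-0209 covered more of the pieces than of the rest. CpG-rich starts were also more frequent under pieces, and the middle was retained more than the outer parts. The middle and outer parts were closest with H3K27me3 CPI-0209 joined over 3 kb, at 53.0% and 50.2%. An interval absent from a list may be a matter of depth, which is unknown here.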

Other observations

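MicroRNA hairpins also lay in broken domains. They were looked up after the results on gene starts were known, so the names below were chosen after their values were seen. Of 1558 hairpins in the RefSeq table, 265 lay under an H3K27me3 DMSO domain, and 60.8% of these lay wholly under H3K27me3 CPI-0209. Broken domains held 71, in 55 domains, of which 51 (71.8%, 59.9 to 81.9) lay wholly under a piece. The limits treat hairpins that share a domain as independent. The 265 were not limited to domains with a piece, so a higher share in broken domains was partly set by the rule. The 3 genes of miR-9, a neural microRNA, all lay in broken domains, with MIR9-1 on chromosome 1 and MIR9-3 on chromosome 15 under a piece and MIR9-2 on chromosome 5 not. Domains of 41.4 and 31.6 kb on chromosome 14, in the imprinted DLK1-DIO3 region, held 14 hairpins, all under pieces; these 14 share 2 domains and are not independent. MIR203A, whose product is abundant in keratinocytes, lay under a piece in a domain with 80.0% retained. MIR122, the gene of the liver microRNA miR-122, did not, in a domain with 33.2% retained. The mature sequences, from RefSeq, are given 5′ to 3′ with the seed (bases 2 to 8) in capitals.
miR-9-5p: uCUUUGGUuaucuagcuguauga
miR-203a-3p: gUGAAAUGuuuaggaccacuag
miR-122-5p: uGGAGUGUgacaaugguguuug
The 3 seeds differ. MicroRNA levels were not measured.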
